A study of Mus musculus with 36 samples.

Results

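The genes described here are 8 interferon-stimulated antiviral effectors of the mouse: Mx1, Mx2, Ifit1, Ifit2, Ifit3, Rsad2 (viperin), Isg20 and Bst2 (tetherin). They were chosen by symbol, as every probe set annotated to 1 of these genes and to no other. This gave 10 of the array's 22690 probe sets and 8 of the 12394 genes that such probe sets read. Rsad2 has 3 probe sets and each of the other genes has 1. A gene entered the tests when its probe set lay above the array median on at least 2 arrays. All 8 genes passed, among 7960 tested for microglia and 7163 tested for BV-2. In microglia Mx1, Mx2 and Isg20 lay above the median on 20 of 24 arrays and the others on all 24. In BV-2 cells Mx1, Mx2 and Ifit1 did on 9 of 12 arrays, Ifit3 on 10 and the others on all 12. The filter thus removed none of the members, but those short of all arrays met it mainly where they were high.

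RNA of 36 samples was hybridised to expression arrays, 24 of primary mouse microglia and 12 of BV-2 cells, an immortalised mouse microglial line. The microglia came from Usp18 knockout mice (KO), from mice with the Usp18_C61A allele (C61A), in which the catalytic cysteine of the protease is replaced, and from wild-type mice (WT). BV-2 cells received a Usp18 siRNA or a control siRNA. Every genotype and siRNA was sampled untreated (0 h) and after 6 h or 24 h with 500 U/ml IFN-b, with 2 arrays labelled as biological replicates in each group. WT titles occur in separate runs of the deposition: the WT arrays beside KO are called set 1 here, those beside C61A set 2, and each mutant was compared within its set. The labels do not say what a run is, nor the age, sex or strain of the mice, nor whether a replicate number is 1 animal or a pool. The p-values therefore measure the spread between these arrays.

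Type I interferon binds a paired receptor and, through the kinases Jak1 and Tyk2, turns on target genes whose promoters carry interferon-stimulated response elements. Usp18 is itself induced by interferon. It removes the ubiquitin-like protein ISG15 from its targets through its catalytic cysteine, and it separately dampens signalling by binding the receptor chain IFNAR2, a function that does not need that cysteine. The 8 genes are among the targets of this pathway that act directly on viruses. Mx1 and Mx2 encode dynamin-like GTPases that block incoming or replicating viral ribonucleoproteins, IFIT proteins bind foreign RNA or each other, viperin makes a chain-terminating nucleotide, ISG20 is an exonuclease, and tetherin holds budding virions at the cell surface.

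In the RefSeq annotation of GRCm38.p6 the Ifit genes lie in 1 cluster, with Ifit2 at chr19:34550550-34576534, Ifit3 at chr19:34583119-34588982 and Ifit1 at chr19:34640889-34650009. Ifit3b, a near-identical copy of Ifit3, lies between them at chr19:34607530-34613403, and signal of Ifit3 may include it. Mx1 (chr16:97447035-97462906) and Mx2 (chr16:97536081-97560901) are neighbours and are both annotated as transcribed pseudogenes in this C57BL/6J assembly, and the array measures transcript, not protein. Rsad2 lies at chr12:26442743-26456452, Isg20 at chr7:78913396-78920396 and Bst2 at chr8:71534255-71537472.

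Promoter stretches are shown because all 8 genes were induced by IFN-b in WT at 6 h. The windows searched run from 250 bases before to 50 bases after a RefSeq transcript start, and the motif is the core of the interferon-stimulated response element, written as GAAA, 2 bases of any kind, and GAAA, on either strand. Of the 9 windows of 6 members 4 held a match, 1 each of Ifit1, Ifit3, Rsad2 and Bst2. Among all 32851 windows 1131 (3.44%) held a match. The stretches below run 5′ to 3′ on the gene's strand, with 20 flanking bases and the matches in capitals (TTTC, 2 bases, TTTC is the motif read on the other strand). They are Ifit1 chr19:34640765-34640833 (plus strand), Ifit3 chr19:34583353-34583436 (plus strand), Rsad2 chr12:26456543-26456592 (minus strand) and Bst2 chr8:71537567-71537622 (minus strand).
Ifit1: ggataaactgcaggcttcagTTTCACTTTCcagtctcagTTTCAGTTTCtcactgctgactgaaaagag
Ifit3: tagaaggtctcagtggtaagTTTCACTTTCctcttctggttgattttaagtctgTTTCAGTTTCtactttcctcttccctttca
Rsad2: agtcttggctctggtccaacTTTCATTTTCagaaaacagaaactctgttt
Bst2: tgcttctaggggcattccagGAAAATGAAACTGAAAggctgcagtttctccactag
Ifit1, Ifit3 and Bst2 each held 2 matches, those of Bst2 sharing 4 bases, where 74 of all windows (0.23%) held 2 or more. A match describes the letters only, and the Ifit2 and Isg20 windows without one say nothing of the factors that act on these genes.

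The deposited values are read as log2 intensities and ran from 1.66 to 14.03, with array medians of 5.59 to 5.83 and array maxima of 13.76 to 14.03. Usp18, the targeted gene, read 4.4 and 3.77 in untreated KO, 6.42 and 5.85 at 6 h and 5.92 and 5.97 at 24 h. In WT of set 1 it read 5.68 and 5.99 untreated, 12.56 and 12.41 at 6 h and 11.15 and 10.71 at 24 h. KO minus WT was -6.35 ± 0.91 at 6 h, with an adjusted p of 0.00226 by limma. The 24 h difference was -4.99 ± 0.91, with an adjusted p of 0.00147. In BV-2 cells the Usp18 transcript was not lower by test in the arrays labelled Usp18 siRNA at 0 h, 6 h or 24 h (-0.02, -0.29 and -0.34 ± 0.45), so these are named by their label. The 6 h value includes Usp18 siRNA replicate 2 (12.49), an array put in doubt below. Without it the 6 h difference was -0.99, with replicate 1 at 11.10 and the control siRNA arrays at 12.15 and 12.04. Of 11 microglial markers 10 or 11 lay above the array median on every microglia array, with P2ry12 as low as 3.65 and Cx3cr1 as low as 6.08, and on the BV-2 arrays 6 to 8 did, or 11 on 1 array, Usp18 siRNA 6 h replicate 2. The 8 astrocyte markers averaged 7.47 to 9.11 in untreated C61A and 7.45 to 8.85 in untreated WT of set 2, and 5.47 to 6.63 in untreated KO and 6.07 to 6.32 in untreated WT of set 1.

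Of the 36 arrays, 3 stand apart and bear on most results. In these genes 1 of them goes against its label and another lies far below its partner. Untreated WT replicate 1 of set 2 read 12.37 for Mx1, against 4.64 on replicate 2, and C61A 6 h replicate 2 read 8.62 for Mx1, against 12.39 on replicate 1. The array labelled untreated thus read like treated arrays, and the array labelled 6 h read below its partner in all 8 genes. The latter still read no lower than the untreated C61A arrays, which had Mx1 at 7.37 and 4.35, so it does not go against its label. Whether labels or samples were exchanged was not tested. In BV-2 cells the 6 h array labelled Usp18 siRNA replicate 2 carried C1qa at 9.96, Fcrls at 12 and Fabp7 at 9.84, where the other BV-2 arrays reached at most 5.10, 4.76 and 3.31 and the microglia arrays had at least 10.52, 7.64 and 9.16. The first 2 of these arrays were put in doubt with interferon-response genes in view, the members among them. The KO, WT set 1 and control siRNA groups hold none of the 3 arrays. Between such groups, leaving the 3 out changes no difference, only the spread shared by the fit. Calls gained there rest on a choice of arrays made partly through these genes. Values without these 3 arrays are named as such wherever they are given, and a lone array left in a group is assumed to vary like the other groups. A gene is said to have risen or fallen where its adjusted p was under 0.05 (limma with Benjamini-Hochberg adjustment over all genes tested). Differences are log2 values with their standard error after the ± sign. Where arrays of 2 groups are said to lie apart, the share of all genes that do so was not counted. Counts under any other alternative, such as single arrays left out, carry no share of all genes and show only how the members' calls moved.

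**Figure D1:**
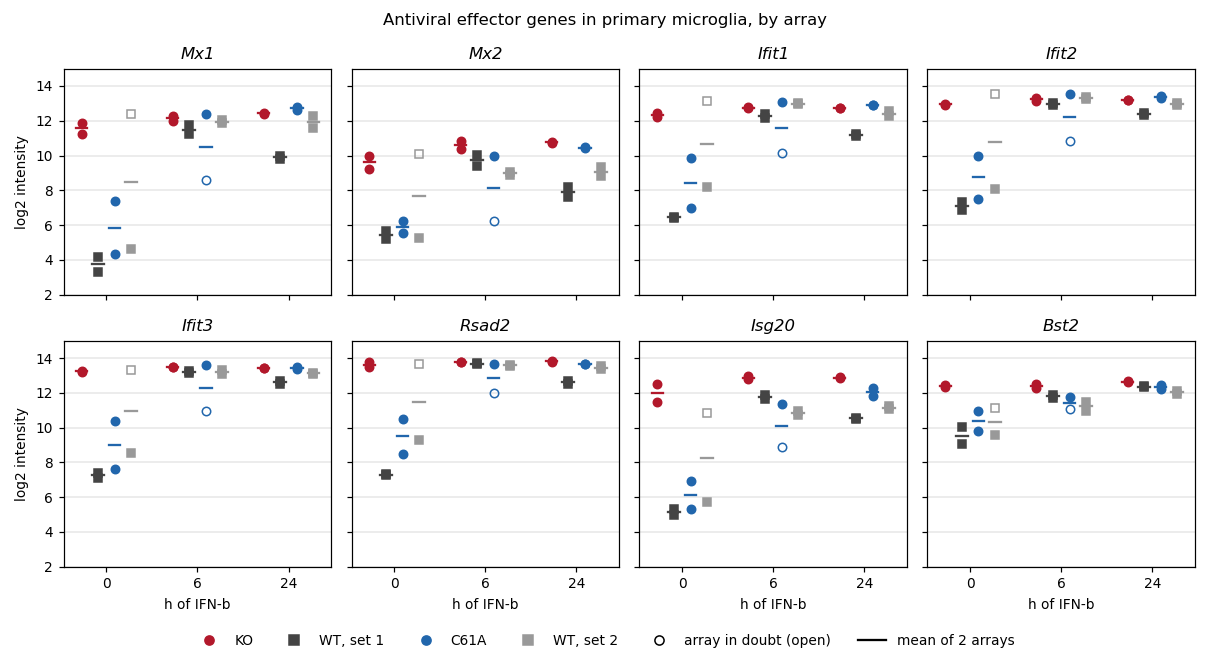
Log2 intensity (vertical axis) of each gene on every microglia array at 0 h, 6 h and 24 h of IFN-b (horizontal axis), with KO left of WT set 1 and C61A left of WT set 2. Points are arrays, bars the mean of 2 arrays, and open points the arrays in doubt. Untreated KO arrays lie above the untreated WT set 1 arrays in all 8 panels.

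Without added IFN-b, all 8 genes were higher in KO than in WT microglia of set 1. Whether the cultures made interferon themselves was not tested. Mx1 read 11.87 and 11.26 in untreated KO, against 3.29 and 4.18 in untreated WT, a difference of 7.83 ± 1.71 (adjusted p 0.00849). Mx2 read 9.99 and 9.22 in KO, against 5.21 and 5.67 in WT, a difference of 4.16 ± 1.17 (adjusted p 0.0269). The arrays of the 2 genotypes did not overlap for either GTPase gene. Untreated WT arrays of set 1 lay below their array medians for Mx1, Mx2 and Isg20, where the signal is not shown to be above background, so differences against them may understate the change.

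The Ifit genes stood close to the top of the scale in untreated KO. Ifit1, whose product recognises viral RNA by its cap, read 12.44 and 12.19 in KO, against 6.41 and 6.48 in WT (5.87 ± 1.20, adjusted p 0.00612). Ifit2 read 12.95 and 12.93 in KO, against 6.85 and 7.33 in WT (5.85 ± 1.22, adjusted p 0.00668). Ifit3, which stabilises IFIT1 in human cells, read 13.28 and 13.18 in KO, against 7.11 and 7.41 in WT (5.97 ± 1.14, adjusted p 0.00445). In each of these genes the KO arrays lay close together and far above both WT arrays.

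Rsad2 encodes a radical SAM enzyme at the endoplasmic reticulum and lipid droplets. It read 13.76 and 13.47 in KO, against 7.27 and 7.34 in WT (6.32 ± 0.95, adjusted p 0.000984). Isg20 read 12.54 and 11.47 in KO, against 4.95 and 5.30 in WT (6.88 ± 1.12, adjusted p 0.00163). Bst2 showed the smallest difference of the 8 genes, with 12.47 and 12.35 in KO, against 9.06 and 10.03 in WT (2.87 ± 0.45, 7.30-fold, adjusted p 0.00128). Its untreated WT arrays already lay well above the array medians, unlike those of Mx1 and Isg20. No KO array overlapped a WT array in any of the 8 genes. The share of all genes without such overlap was not counted.

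Over all genes tested, 8.0% were called higher in untreated KO, and 8 of 8 members were. The members' median difference was 5.92, beside a median of -0.10 over all genes. With the arrays in doubt left out 8 of 8 were again called, at a background of 9.85%. None of those arrays is in this comparison, so the differences were unchanged and only the shared spread fell. That fit is therefore no check of these calls. Pooling the WT sets into 1 group left 2 of the 8 calls. Leaving out untreated KO replicate 1 left 3 of the 8 calls (Rsad2, Isg20 and Bst2), with Mx1 at 7.52 and adjusted p 0.0837. Mx1 and Mx2 missed without untreated WT replicate 1 (adjusted p 0.0607 and 0.123), and Mx2 without replicate 2 (adjusted p 0.105). Border macrophage markers, through Mrc1, were lower in KO: the 3 markers averaged 3.37 to 4.13 in untreated KO and 5.15 to 5.36 in WT, with Lyve1 and Cd163 at or below 3.69 on all microglia arrays. Their part in the result was not tested.

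The untreated KO level can be set against WT after interferon. At 6 h WT of set 1 read 11.22 and 11.74 for Mx1, 12.93 and 13.05 for Ifit2 and 11.87 and 11.63 for Isg20. Untreated KO minus 6 h WT ran from -0.12 (Mx2) to 0.60 (Bst2) over the 8 genes, with a median of 0.04, and no member was called (background 0.251%, 0 of 8 also at an unadjusted p under 0.05). Untreated KO minus 24 h WT was positive for all 8 genes, from 0.06 (Bst2) to 1.71 (Mx2), again with no call and 0 of 8 at an unadjusted p under 0.05 (background 0.314%). Mx2 was called higher with the arrays in doubt left out (1.71 ± 0.33, adjusted p 0.017, background 1.88%). For Mx1 a standard error of 1.71 leaves room for differences of several log2 units, so these values bound the likeness only loosely.

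**Figure D2:**
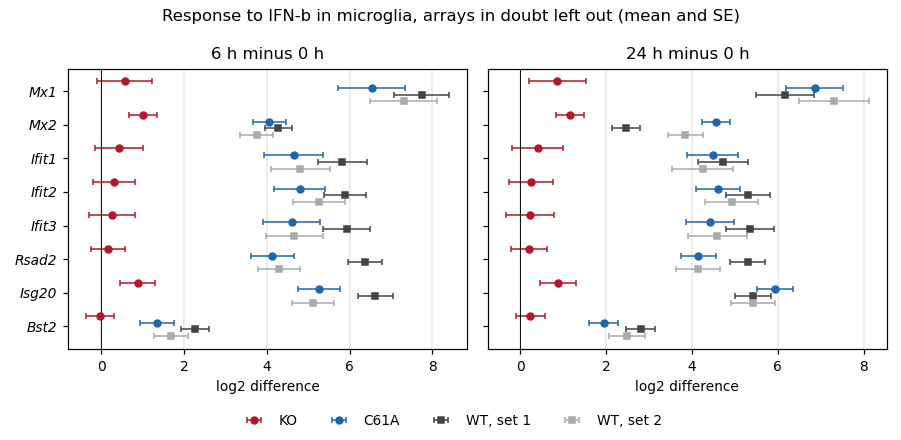
Log2 difference of 6 h or 24 h minus 0 h (horizontal axis, mean and SE) for each gene in KO, C61A, WT set 1 and WT set 2 microglia, with the arrays in doubt left out. KO responses lie between -0.03 and 1.15, while those of the other genotypes lie between 1.35 and 7.75.

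In WT microglia every member rose within 6 h of IFN-b. In set 1 Mx1 read 3.29 and 4.18 at 0 h, 11.22 and 11.74 at 6 h and 9.81 and 9.99 at 24 h. Rsad2 read 7.27 and 7.34 at 0 h, 13.69 and 13.67 at 6 h and 12.53 and 12.66 at 24 h. Isg20 read 4.95 and 5.30 at 0 h, 11.87 and 11.63 at 6 h and 10.56 and 10.52 at 24 h. These 3 genes thus had their highest arrays at 6 h and arrays in between at 24 h, with no overlap between times. The 6 h changes in set 1 ran from 2.27 ± 0.45 for Bst2 (4.81-fold, adjusted p 0.00294) to 7.75 ± 1.71 for Mx1 (adjusted p 0.00538), and 8 of 8 members rose, at a background of 10.8%.

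Averaged over both WT sets, 8 of 8 rose at 6 h (background 7.59%), with the largest change in Mx1 (5.59 ± 1.21, adjusted p 0.00913) and the smallest in Bst2 (1.58 ± 0.32, adjusted p 0.00682). The count was again 8 without the arrays in doubt, at a background of 10.5%, and 1 when the WT sets were pooled into 1 group. Mx2 lost its call without any 1 of the WT 0 h or 6 h arrays other than the one in doubt (adjusted p 0.0567 to 0.156). In set 2 alone, no member was called at 6 h (background 0.0126%, 2 of 8 at an unadjusted p under 0.05) or at 24 h (background 0.0754%, 2 of 8 at an unadjusted p under 0.05). There the untreated arrays disagreed: replicate 1 read 13.69 for Rsad2 and replicate 2 read 9.30, while 6 h read 13.56 and 13.63 and 24 h read 13.53 and 13.38. Without replicate 1 and the other arrays in doubt, 8 of 8 rose in set 2 at 6 h (background 3.02%) and 8 of 8 at 24 h (background 2.51%), Mx1 by 7.31 ± 0.82 at each time.

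At 24 h the WT response was still called for 6 of 8 members as the mean of the sets (background 2.02%), from 2.25 ± 0.32 for Bst2 (adjusted p 0.0018) to 4.80 ± 1.21 for Mx1 (adjusted p 0.0499). Mx2 (1.94 ± 0.83, adjusted p 0.241) and Ifit1 (3.24 ± 0.85, adjusted p 0.0578) did not pass. In set 1 alone 5 of 8 were called (background 1.63%), Mx1, Mx2 and Ifit1 not among them. Without the arrays in doubt 8 of 8 rose in both comparisons, at backgrounds of 4.95% and 3.74%. Set 1 holds none of these arrays, so its differences were unchanged and only the shared spread fell. The mean over sets rested on single arrays: the count was 1 without set 1 0 h replicate 1, set 1 24 h replicate 2 or set 2 24 h replicate 1, and 3 without set 1 24 h replicate 1, set 1 0 h replicate 2 or set 2 24 h replicate 2. In set 1 alone it was 1 without 0 h replicate 2 and 0 without any of the other 3 arrays compared.

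The change between 6 h and 24 h of IFN-b is first described by arrays in set 1. The 24 h arrays lay below the 6 h arrays for 7 genes and above them for Bst2. How many of all genes separate in this way was not counted. Mx2 read 9.41 and 10.03 at 6 h and 7.63 and 8.17 at 24 h (-1.82 ± 1.17), and Ifit1 read 12.16 and 12.39 at 6 h and 11.10 and 11.24 at 24 h (-1.10 ± 1.20). Bst2 instead read 11.89 and 11.73 at 6 h and 12.33 and 12.37 at 24 h (0.54 ± 0.45). No member passed the test over all arrays (background 10.6%, adjusted p 0.348 to 0.81, 0 of 8 at an unadjusted p under 0.05). Mx2 fell when the arrays in doubt were left out (-1.82 ± 0.33, adjusted p 0.00267, background of lower calls 7.58%). In set 2 the change from 6 h to 24 h ran from -0.56 for Ifit1 to 0.80 for Bst2 and no gene of the array was called (background 0%, 0 of 8 members at an unadjusted p under 0.05). The response in set 2 minus that in set 1 was called for no member at 6 h (background 0.791%, 4 of 8 at an unadjusted p under 0.05) or at 24 h (background 0%, 1 of 8).

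KO microglia added little to their untreated level. Mx1 read 11.87 and 11.26 at 0 h, 12.26 and 12 at 6 h and 12.40 and 12.45 at 24 h. Ifit3 read 13.28 and 13.18 at 0 h, 13.46 and 13.50 at 6 h and 13.45 and 13.46 at 24 h. Mx2 had the largest KO change, with 9.99 and 9.22 at 0 h, 10.84 and 10.38 at 6 h and 10.79 and 10.73 at 24 h (1.01 ± 1.17 at 6 h and 1.15 ± 1.17 at 24 h). None of the 8 was called at 6 h (background 8.45%) or at 24 h (background 3.97%), and none had an unadjusted p under 0.05 in either. Mx2 remained nearest to the threshold without the arrays in doubt, at adjusted p 0.055 and 0.0552. Rsad2 in KO reached 13.86, inside the range of the array maxima; how far the top of the scale bounds the KO response was not tested.

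The KO response was smaller than the WT response in all 8 genes, but over all arrays the difference itself passed only for Rsad2. At 6 h it was -6.21 ± 1.34 for Rsad2 (adjusted p 0.0441), where the other Rsad2 probe sets gave -6.92 and -6.53 with adjusted p 0.0791 and 0.0695. The background was 0.854% called lower, and 7 of 8 members had an unadjusted p under 0.05. The call of Rsad2 was lost when any 1 of the 8 KO or WT arrays compared was left out. At 24 h no member was called (background 0.716%, 7 of 8 at an unadjusted p under 0.05), with adjusted p from 0.087 for Bst2 to 0.802 for Mx2. Without the arrays in doubt 8 of 8 were lower at 6 h (background 3.72%), from -2.30 ± 0.47 for Bst2 to -7.18 ± 0.94 for Mx1. At 24 h 7 of 8 were then lower (background 2.04%), and Mx2 was the exception at -1.31 ± 0.46 (adjusted p 0.189). None of the arrays in doubt is in these comparisons, so the differences were unchanged and only the shared spread fell. The replicate block gave 6 calls at 6 h and 3 at 24 h.

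**Figure D3:**
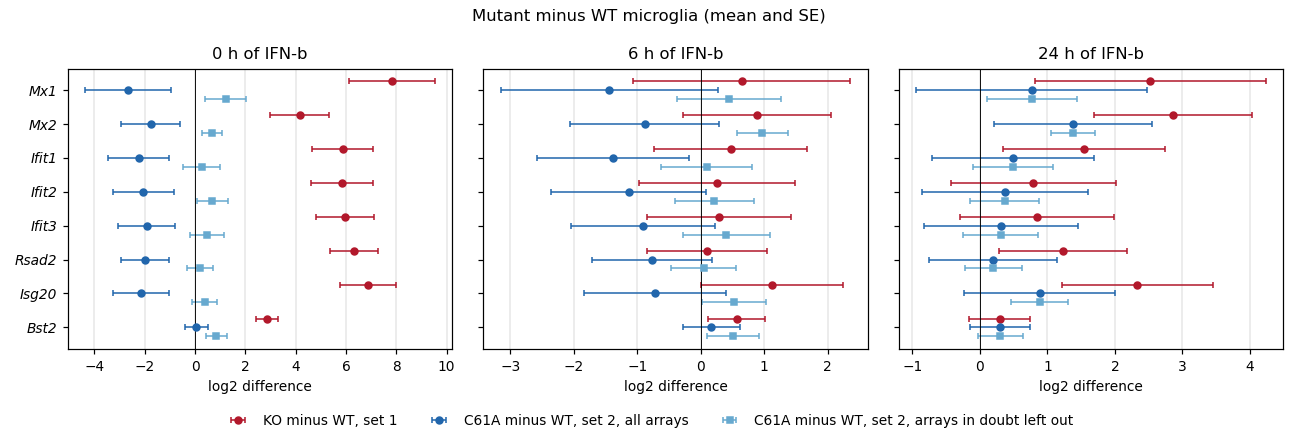
Log2 difference between mutant and WT microglia (horizontal axis, mean and SE) for each gene at 0 h, 6 h and 24 h of IFN-b, for KO minus WT set 1 over all arrays, C61A minus WT set 2 over all arrays, and the same with the arrays in doubt left out. At 0 h KO differences run from 2.87 to 7.83, and C61A differences change sign for 7 genes when the arrays in doubt are left out. The horizontal scales differ between panels.

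After interferon the KO and WT arrays came closer. At 6 h KO minus WT ran from 0.10 (Rsad2) to 1.13 (Isg20) and no member was called (background 8.32%, 0 of 8 at an unadjusted p under 0.05). At 24 h Mx2 read 10.79 and 10.73 in KO, against 7.63 and 8.17 in WT (2.86 ± 1.17, adjusted p 0.0794). Mx1 read 12.40 and 12.45 in KO, against 9.81 and 9.99 in WT (2.52 ± 1.71, adjusted p 0.292). Isg20 read 12.90 and 12.85 in KO, against 10.56 and 10.52 in WT (2.33 ± 1.12, adjusted p 0.132). The KO arrays lay above the WT arrays in all 3 genes.

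None of the 8 passed at 24 h over all arrays, where 29.1% of genes were called in either direction, and 1 of 8 had an unadjusted p under 0.05. With the arrays in doubt left out 4 of 8 were higher in KO: Mx2 (adjusted p 0.000108), Isg20 (adjusted p 0.00126), Mx1 (adjusted p 0.012) and Rsad2 (1.23 ± 0.42, adjusted p 0.0386). The background for that count was 13.9%. None of the arrays in doubt is in this comparison, so the differences were those over all arrays. Only the spread shared by the fit fell, the largest standard error of the 8 genes going from 1.71 to 0.67. The arrays left out were chosen partly through these genes, so these calls are no independent support. Bst2, with 12.61 and 12.68 in KO and 12.33 and 12.37 in WT, differed least at 24 h (0.29 ± 0.45). The Ifit genes did not pass (0.79 for Ifit2, 0.84 for Ifit3 and 1.54 for Ifit1). The replicate block gave 1 call.

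In C61A microglia the 24 h arrays lay above the untreated arrays in all 8 genes, without a count of how many of all genes do so. Mx1 read 7.37 and 4.35 at 0 h, 12.39 and 8.62 at 6 h and 12.79 and 12.64 at 24 h. Isg20 read 6.91 and 5.31 at 0 h, 11.37 and 8.87 at 6 h and 11.83 and 12.25 at 24 h. Untreated replicate 1 was above replicate 2 in all 8 genes, with Ifit1 at 9.87 and 6.98. At 6 h no member was called (background 0.0503%, 7 of 8 at an unadjusted p under 0.05). At 24 h 8 of 8 rose (background 5.46%), from 1.95 ± 0.45 for Bst2 (adjusted p 0.0187) to 6.86 ± 1.71 for Mx1 (adjusted p 0.0248).

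With the arrays in doubt left out 7 of 8 rose at 6 h in C61A (background 4.33%), all but Bst2 (1.35 ± 0.41, adjusted p 0.094). The 24 h count over all arrays was 5 without untreated replicate 1, and 0 without untreated replicate 2, 24 h replicate 1 or 24 h replicate 2.

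C61A and WT of set 2 differed by test in none of the 8 genes. At 24 h Mx2 read 10.44 and 10.48 in C61A, against 9.34 and 8.82 in WT (1.38 ± 1.17), and Mx1 read 12.79 and 12.64 in C61A, against 12.29 and 11.60 in WT (0.77 ± 1.71). The C61A arrays lay above the WT arrays for both genes. At 0 h the difference over all arrays ran from -2.65 (Mx1) to 0.05 (Bst2), and with the arrays in doubt left out from 0.20 (Rsad2) to 1.22 (Mx1). No member was called at 0 h (background 0.0126%), 6 h (background 0.0126%) or 24 h (background 0.0251%), with 0 of 8 at an unadjusted p under 0.05 at each time. Leaving out untreated WT replicate 2 of set 2 keeps the array in doubt as the lone untreated WT array. The untreated C61A minus WT difference was then -6.52 for Mx1 and -0.74 for Bst2.

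The C61A response minus the WT response was called for no member at 6 h or 24 h (background 0% for both, 0 of 8 at an unadjusted p under 0.05). Without untreated WT replicate 2 of set 2, which leaves the array in doubt alone, the 24 h difference was 7.29 for Mx1. With the arrays in doubt left out the differences ran from -0.77 to 0.31 at 6 h and from -0.54 to 0.72 at 24 h.

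The KO effect was larger than the C61A effect in untreated cells for all 8 genes. Over all arrays the difference of the 2 effects ran from 2.82 ± 0.63 for Bst2 (adjusted p 0.0131) to 10.47 ± 2.42 for Mx1 (adjusted p 0.0146), at a background of 7.55%. Part of its size lies in the untreated WT array in doubt: without the arrays in doubt it was 2.02 ± 0.53 for Bst2 and 6.61 ± 1.06 for Mx1, again with 8 of 8 called (background 5.59%). The count was 5 without untreated KO replicate 1 or without untreated WT replicate 1 of set 1. Neither at 6 h (background 0.817%) nor at 24 h (background 3.10%) was a member called, with 0 of 8 at an unadjusted p under 0.05. At 24 h Mx2 came nearest with the arrays in doubt left out (1.48 ± 0.46, adjusted p 0.0747). The 2 effects come from different deposition runs with different astrocyte marker levels, and the part of either in this difference was not tested.

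**Figure D4:**
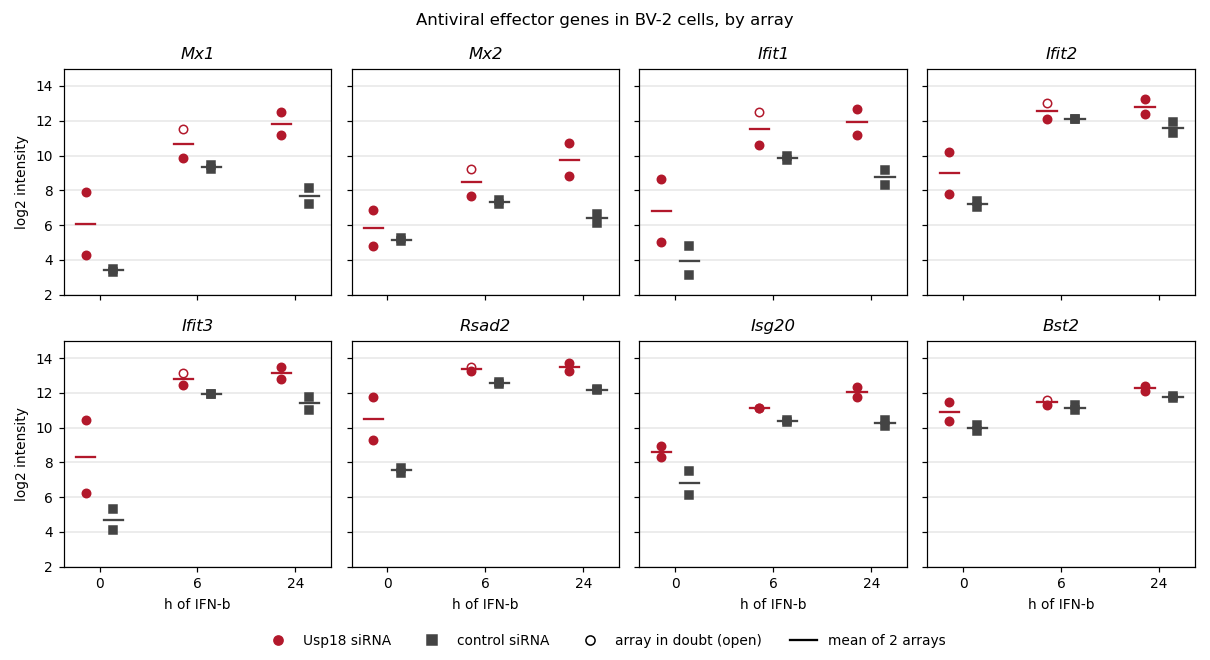
Log2 intensity (vertical axis) of each gene on every BV-2 array at 0 h, 6 h and 24 h of IFN-b (horizontal axis), with arrays labelled Usp18 siRNA left of control siRNA. Points are arrays, bars the mean of 2 arrays, and open points the array in doubt. At 24 h the Usp18 siRNA arrays lie above the control arrays in all 8 panels.

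BV-2 cells with control siRNA responded within 6 h. Ifit3 read 4.09 and 5.30 at 0 h, 11.94 and 11.92 at 6 h and 11.02 and 11.78 at 24 h. Mx1 read 3.47 and 3.31 at 0 h, 9.23 and 9.48 at 6 h and 7.22 and 8.14 at 24 h. At 6 h 6 of 8 rose (background 0.991%), from 3.55 ± 0.41 for Isg20 (adjusted p 0.00626) to 7.24 ± 1.06 for Ifit3 (adjusted p 0.017). Mx2 (2.17 ± 0.78) and Bst2 (1.15 ± 0.32) did not pass. Both untreated control arrays lay below their array medians (5.68 and 5.65) for Mx1, Mx2, Ifit1 and Ifit3. There the signal is not shown to be above background, so changes from it may be understated. At 24 h 4 of 8 were called (background 0.503%): Ifit2, Ifit3, Rsad2 and Isg20. These counts rested on single arrays, falling to 1 without either control 0 h array and to 0 without either control 6 h array, or at 24 h without either control 24 h array. Without the array in doubt in the shared fit, Ifit1 missed the threshold at 6 h (adjusted p 0.0515) and Ifit3 at 24 h (adjusted p 0.0512).

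In the arrays labelled Usp18 siRNA the replicates were further apart. Mx1 read 4.26 and 7.89 at 0 h, 9.85 and 11.50 at 6 h and 11.19 and 12.48 at 24 h. Replicate 2 was the higher of the 2 untreated arrays in all 8 genes, with Ifit3 at 6.25 and 10.42. At 6 h 2 of 8 rose (Ifit2 and Isg20, background 1.02%), and 0 did with the array in doubt left out (background 0.0419%). The count was 0 without untreated replicate 1, 5 without untreated replicate 2 and 6 without 6 h replicate 1. At 24 h 8 of 8 rose (background 6.62%), from 1.37 ± 0.32 for Bst2 (adjusted p 0.0241) to 5.76 ± 1.01 for Mx1 (adjusted p 0.0108). The 24 h count was 2 without untreated replicate 1 and 1 without 24 h replicate 2.

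At 24 h the arrays labelled Usp18 siRNA were higher than control siRNA in 3 of 8 genes: Mx1, Mx2 and Isg20. Mx1 read 11.19 and 12.48 with Usp18 siRNA, against 7.22 and 8.14 with control siRNA (4.15 ± 1.01, adjusted p 0.0487). Mx2 read 8.80 and 10.69 with Usp18 siRNA, against 6.12 and 6.65 with control siRNA (3.36 ± 0.78, adjusted p 0.0452). Isg20 read 11.74 and 12.36 with Usp18 siRNA, against 10.09 and 10.46 with control siRNA (1.78 ± 0.41, adjusted p 0.0443). The arrays overlapped in none of the 3 genes.

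The background for that count was 3.07%. Among the other 5 genes Ifit1 was the largest, at 11.19 and 12.68 with Usp18 siRNA and 8.31 and 9.18 with control siRNA (3.19 ± 1.11, adjusted p 0.104), and Bst2 was the smallest (0.51 ± 0.32). All 3 calls were close to the threshold and all 3 were lost without control 24 h replicate 1, without control 24 h replicate 2 or without Usp18 siRNA 24 h replicate 2, Mx1 then being 3.69, 4.62 and 3.51. At 0 h no member was called (background 0%, 7 of 8 at an unadjusted p under 0.05, 2 of 8 called without untreated Usp18 siRNA replicate 1), and at 6 h none was (background 0%, 0 of 8 at an unadjusted p under 0.05). The difference of the siRNA responses was called for no member at 6 h (background 0%) or at 24 h (background 0.0279%), with 1 of 8 at an unadjusted p under 0.05 at each time. It was called for 1 of 8 at 6 h without untreated Usp18 siRNA replicate 1. The Usp18 transcript itself read 11.07 and 11.48 with Usp18 siRNA and 11.51 and 11.73 with control siRNA at 24 h.

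**Figure D5:**
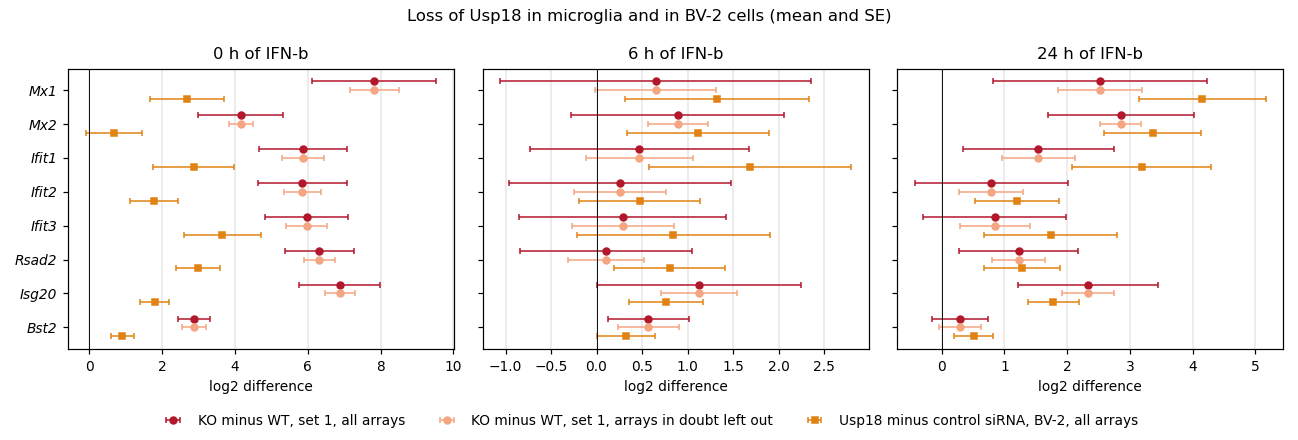
Log2 difference (horizontal axis, mean and SE) for each gene at 0 h, 6 h and 24 h of IFN-b, for KO minus WT microglia of set 1 over all arrays and with the arrays in doubt left out, and for BV-2 arrays labelled Usp18 siRNA minus control siRNA. At 24 h Mx1, Mx2 and Isg20 passed with the siRNA, and in KO only with the arrays in doubt left out. The horizontal scales differ between panels.

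The 24 h comparisons in microglia and in BV-2 cells share no arrays. Over all arrays 0 of 8 members passed in microglia and 3 of 8 in BV-2 cells. KO minus WT with the arrays in doubt left out (4 of 8 called, background 13.9%), and Usp18 siRNA minus control siRNA over all arrays (background 3.07%), gave 2.52 ± 0.67 and 4.15 ± 1.01 for Mx1, 2.86 ± 0.33 and 3.36 ± 0.78 for Mx2, and 2.33 ± 0.42 and 1.78 ± 0.41 for Isg20. Rsad2 gave 1.23 ± 0.42 and 1.28 ± 0.61 and was called in microglia alone, and no difference between the cell systems was tested. The all-array standard errors in microglia were 1.71 for Mx1, 1.17 for Mx2 and 1.12 for Isg20. Bst2 had the smallest value in both (0.29 ± 0.34 and 0.51 ± 0.32).

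The course between 6 h and 24 h is given by arrays alone, as a description with no test. The share of all genes whose arrays separate in these ways was not counted. The counts below are therefore not shown to be particular to these genes. With control siRNA 6 of 8 genes had both 24 h arrays below both 6 h arrays, with mean changes of -1.68 for Mx1 and -1.11 for Ifit1, and Bst2 had them above. In the arrays labelled Usp18 siRNA no gene had its 24 h arrays below its 6 h arrays, and Isg20 and Bst2 had them above. Without the 6 h array in doubt 7 of 8 genes had them above, against the lone 6 h array. In KO microglia 3 genes had them above and Ifit3 had them below.

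Other genes of the pathway were counted by list. Of 25 other antiviral effectors 20 were tested in microglia, and 17 were higher in untreated KO than in WT (background 8.0%), among them Oasl1, an oligoadenylate synthetase-like protein (6.46 ± 0.77, adjusted p 0.000219), and Samhd1, a nucleotide hydrolase (2.90 ± 0.51, adjusted p 0.00286). Their median difference was 2.84, against -0.10 over all genes. Of 12 genes of the interferon receptor and its signalling 11 were tested and 6 were higher, among them Irf7 (6.47 ± 1.08, adjusted p 0.00203) and Tyk2 (1.49 ± 0.29, adjusted p 0.00448). In WT at 6 h as the mean of the sets 15 of 20 effectors and 6 of 11 signalling genes rose (background 7.59%).

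At 24 h KO was higher than WT in 3 of the 20 effectors, near the 11.3% of all genes called higher. They were Oas1b (2.54 ± 0.60, adjusted p 0.00694), Oasl1 (2.58 ± 0.77, adjusted p 0.0221) and the antibody receptor Trim21 (2.04 ± 0.72, adjusted p 0.0473), and lower in Ifitm2 (-1.45 ± 0.36, adjusted p 0.00829). The arrays labelled Usp18 siRNA were higher at 24 h in 3 of 19 effectors (background 3.07%), Oas1b (2.45 ± 0.26, adjusted p 0.00401), Trim21 (2.55 ± 0.46, adjusted p 0.0262) and Samhd1 (1.56 ± 0.37, adjusted p 0.0469).

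The genes whose pattern over the 12 microglia group means was most like the mean of the members were Ifi209 (Pearson r 0.995), Iigp1 (0.992), Tor3a (0.991), Igtp (0.989) and Fcgr4 (0.988). Over the 6 BV-2 group means they were Ifi209, Hivep1 and Irgm1 (0.998 each), and Ube2l6 and Trim30a (0.997 each). Among the members Bst2 (0.909 in both systems) and Mx2 (0.954 in microglia and 0.919 in BV-2 cells) were least like the mean. These values describe the groups, which share arrays of 1 scaling, and carry no test.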

How the data were processed

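Total RNA of 36 samples was measured on 3' expression arrays. The deposited values were taken as log2 intensities from the span they cover, since no source states a log base, and the normalization by the authors is not given in the sources used here beyond the affy package named in the submitters' processing notes. Values were used as deposited, and the number of arrays limits the precision.

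Of 21084 annotated probe sets 20393 named 1 gene and were kept. Where several passed, the probe set with the highest mean stood for the gene. Other Rsad2 probe sets had the same sign in 77 of 78 comparisons. Groups were compared with limma 3.58.1 in R 4.3.3, by linear models of group means with eBayes, and p-values were adjusted by Benjamini-Hochberg over every gene in the fit (39 comparisons, residual degrees of freedom 12 and 6). The fit was tested on simulated data. Figures used matplotlib 3.10.9.

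All 8 genes are described, and other genes of the pathway are named from lists where called. The members, lists, tests and arrays in doubt were chosen with earlier results of these data known. Deviations of same-numbered arrays correlated at 0.434 to 0.672 across times in WT set 1 and 0.296 to 0.520 in set 2. WT numbers, with 4 pairs over both sets, were therefore taken as paired by rule. The main fits do not use this pairing, and a replicate block was tried only as an alternative. The other groups have 2 pairs each, too few for that rule, with 0.538 to 0.655 in C61A and 0.685 to 0.811 in KO, and in BV-2 cells 0.412 to 0.526 (Usp18 siRNA) and 0.310 to 0.759 (control). Other alternatives were median centring, repeated quantile normalization, no filter, mean of probe sets, no set term, and single arrays left out.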

Additional observations from a re-analysis of the deposited data

Results flagged for a closer look

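The KO effect in untreated microglia differed by test from the C61A effect in all 8 genes. KO minus C61A of the effects was 10.47 for Mx1, 5.92 for Mx2, 8.11 for Ifit1, 7.90 for Ifit2, 7.90 for Ifit3, 8.31 for Rsad2, 9.04 for Isg20 and 2.82 for Bst2 (log2, limma, all arrays). The Rsad2 response at 6 h also differed by test, KO minus WT being -6.21.

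In 3 further cases the arrays of 2 groups moved in opposite directions between 6 h and 24 h of IFN-b, all 24 h arrays being above the 6 h arrays in the mutant and below them in WT. The change was larger in KO than in WT of set 1 by 1.88 for Mx1 and by 1.13 for Rsad2, and larger in C61A than in WT of set 2 by 0.97 for Rsad2. For Rsad2 the change was 0.04 in KO and -1.08 in WT of set 1, so that difference lies mostly in WT. These 3 differences were not tested, and the last rests on a C61A 6 h array in doubt. How many of all genes have arrays that move apart in this way was not counted. The other C61A 6 h array read 13.6381 for Rsad2, beside 13.6428 and 13.6645 at 24 h.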

How the results depend on the processing

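Counts are of the 8 genes called. They are given here without the share of all genes called under each alternative, and show only how the members' calls moved. No called difference changed sign under any alternative. Median centring, repeated quantile normalization, the mean of probe sets and the absence of a filter left every count within 1.5 times its value except these: the KO minus WT response at 6 h went to 0 with centring, without the filter and with the mean of probe sets, and without the filter the BV-2 counts were 1 (Usp18 siRNA, 6 h over 0 h) and 0 (Usp18 over control siRNA at 24 h). Pooling the WT sets gave 1 for WT at 6 h, 1 for WT at 24 h, 1 for C61A at 24 h, 2 for KO over WT at 0 h, 0 for the KO minus WT response at 6 h and 4 for the KO minus C61A effect at 0 h. The replicate block gave 6 and 3 for the KO minus WT response at 6 h and 24 h, 1 for KO over WT at 24 h, 1 for WT set 2 at 24 h, 1 for the set difference at 6 h, 8 for control siRNA at 24 h, 7 for Usp18 siRNA at 6 h and 1 for the difference of siRNA responses at 24 h, and moved no other count by over 1.5 times. For KO, C61A and BV-2 the numbers share 2 pairs only, a hint and not a stated pairing.

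Without the arrays in doubt the counts were 1 for WT 24 h over 6 h (mean of the sets, and set 1), 8 for WT set 1 at 24 h, 8 and 8 for WT set 2, 7 for C61A at 6 h, 4 for KO over WT at 24 h, 8 and 7 for the KO minus WT response, 1 for untreated KO over 24 h WT and 0 for Usp18 siRNA at 6 h. Leaving out single arrays gave 1 to 8 for WT at 24 h, 0 to 1 for set 1 at 24 h, 0 to 6 for set 2 at each time, 0 to 8 and 0 to 1 for the set difference at 6 h and 24 h, 0 to 5 for C61A at 24 h, 3 to 8 for KO over WT at 0 h, 0 to 7 for C61A over WT at 0 h, 0 for the KO minus WT response at 6 h, 0 to 5 for the C61A minus WT response at 24 h and 5 to 8 for the KO minus C61A effect at 0 h. In BV-2 cells they gave 0 to 1 for control siRNA at 6 h and at 24 h, 0 to 6 and 1 to 8 for Usp18 siRNA at 6 h and 24 h, 0 to 2 and 0 to 3 for Usp18 over control siRNA at 0 h and 24 h, and 0 to 1 for the difference of responses at 6 h. Fits with fewer arrays have fewer degrees of freedom, and a group left with 1 array has a less precise mean. What changed the counts was not tested. With 2 arrays a group, a difference that missed the threshold is not shown to be absent.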
